A study of Mus musculus with 190 samples.

Results

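The oligoadenylate synthetase family was followed in whole blood of NC/Nga mice. Mice of this inbred strain may acquire skin lesions resembling human atopic dermatitis when they are kept outside specific-pathogen-free (SPF) housing. Its members were taken by name from the gene table, as the 7 genes Oas1a, Oas1e, Oas1g, Oas2, Oas3, Oasl1 and Oasl2 of 55414 genes in all, and all 7 passed the filter on low counts in each comparison over all of its libraries. The study sequenced 190 blood libraries of male wild-type mice to follow the transcriptome before and after the onset of dermatitis and by its severity. Of these, 180 came from 9 conventionally housed cohorts of 10 mice. Each cohort was bled a first time on day 2, 5, 9, 12, 16, 19, 23, 26 or 30 (cohorts 1 to 9 in that order) and again on day 44 (odd-numbered cohorts) or day 40 (even-numbered cohorts). The controls were 10 libraries from SPF mice, 5 from day 16 and 5 from day 44, all with a dermatitis score of 0. No mouse carried a transgene or received an agent, per the labels. In the first sampling a day stands for 1 cohort, and the effects of either cannot be told apart. The labels do not say whether a replicate number marks the same mouse on both days, so p-values measure the spread between libraries.

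Oligoadenylate synthetases are interferon-induced proteins that sense double-stranded RNA. On binding it, active members join ATP into short chains called 2-5A, which signal within the cell that RNA is to be degraded and so limit virus growth. Type I interferons induce the family through a transcription factor complex that binds a DNA motif named the interferon-stimulated response element. Blood neutrophils and monocytes are known to carry interferon-induced genes, and whole blood also holds RNA of young red cells, platelets and lymphocytes.

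All members lie on mouse chromosome 5 (GRCm39). Oasl2 (ENSMUSG00000029561.18, 115034997 to 115050295) and Oasl1 (ENSMUSG00000041827.16, 115061299 to 115075974) are neighbours on the plus strand. The others are on the minus strand, as Oas2 (ENSMUSG00000032690.17, 120868398 to 120887918), Oas3 (ENSMUSG00000032661.10, 120891163 to 120915726), Oas1e (ENSMUSG00000066867.9, 120924291 to 120933595), Oas1g (ENSMUSG00000066861.15, 121014205 to 121025676) and Oas1a (ENSMUSG00000052776.11, 121034319 to 121045584).

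Promoters are shown as a description. They cannot be compared within the pairs Oas2 with Oasl2 and Oas1e with Oas3, described below, because those of Oas2 and Oas1e are missing. RefSeq promoters of the older build GRCm38.p6 were matched by symbol for 5 of the 7 members. Each run is the 150 bases before the gene start, 5′ to 3′ on the gene's strand, and capitals mark matches to GAAA followed by 2 bases of any kind and GAAA again, the core of the interferon-stimulated response element, searched on both strands. Those of Oas1a (chr5:120907526-120907675, minus strand) and Oas1g (chr5:120887614-120887763, minus strand) each hold 2 overlapping matches.
Oas1a: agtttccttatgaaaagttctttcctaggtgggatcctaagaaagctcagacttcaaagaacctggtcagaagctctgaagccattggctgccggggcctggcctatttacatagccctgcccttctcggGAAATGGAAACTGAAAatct
Oas1g: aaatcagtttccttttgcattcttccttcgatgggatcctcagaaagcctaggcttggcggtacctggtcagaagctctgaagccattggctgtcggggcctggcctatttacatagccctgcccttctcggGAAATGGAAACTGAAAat
The promoter of Oas3 (chr5:120777660-120777809, minus strand) holds 1 match, farther from the start.
Oas3: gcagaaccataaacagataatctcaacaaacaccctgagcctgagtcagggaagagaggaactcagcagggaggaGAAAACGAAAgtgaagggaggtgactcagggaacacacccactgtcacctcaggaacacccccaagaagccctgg
Those of Oasl1 (chr5:114923090-114923239, plus strand) and Oasl2 (chr5:114896784-114896933, plus strand) have no match in these runs, nor in the full windows of 300 bases, which reach past the start.
Oasl1: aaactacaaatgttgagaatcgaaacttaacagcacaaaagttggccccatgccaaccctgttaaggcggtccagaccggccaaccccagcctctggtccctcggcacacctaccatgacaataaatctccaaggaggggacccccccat
Oasl2: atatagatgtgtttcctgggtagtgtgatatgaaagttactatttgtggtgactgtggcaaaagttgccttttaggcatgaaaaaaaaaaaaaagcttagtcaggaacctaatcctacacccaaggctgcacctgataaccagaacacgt
The motif was found in 3 of 5 member promoters and in 1131 of 32851 promoters of the same length (3.44%). The Oas1a and Oas1g promoters were 88.8% identical over 294 aligned bases.

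Oas1a and Oas1g are near-identical copies and share reads. Of the 50-base stretches in Oas1a's transcripts, 57.6% also occur in Oas1g, and 45.2% of those of Oas1g occur in Oas1a. The deposited counts of both were not whole numbers in 86.8% of the 190 libraries, while their sum was whole in each, so their separate values are estimates. Oas1e shares 8.06% of its stretches with Oas1c, and none of those of Oas2, Oas3, Oasl1 and Oasl2 were shared with another gene of the family. Per transcript length, in deposited TPM over 190 libraries, the median level was highest for Oasl2 at 4.307 (0.476 to 30.656). Oas3 followed at 2.1335 (0.502 to 9.325), Oas1a at 0.746 (0.126 to 4.404), Oas2 at 0.426 (0.065 to 2.08) and Oasl1 at 0.289 (0.02 to 1.014). Oas1e had a median of 0.238 TPM but reached 4.588, and Oas1g was lowest at 0.0735 (0 to 0.64). The ranges of all neighbours in this order overlapped. Of the copies outside the family members studied, Oas1b (listed as a polymorphic pseudogene) and Oas1c were counted in all 190 libraries, whereas Oas1f, Oas1d and Oas1h had totals of 24, 11 and 0 counts over all of them.

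The libraries held between 21444129 and 71967299 counts. RNA make-up differed by cohort: the median share of globin was 3.579% in cohorts 1 to 4 and 7.826% in cohorts 6 to 9, and that of mitochondrial rRNA was 6.921% and 15.39%. Values within each of these sets of cohorts stand beside the pooled ones where they could be fitted. Cohort 5 is in neither set. One SPF library of day 16 (replicate 3) stood apart with 45.27% globin. Markers of neutrophils, red cell precursors, B, T and NK cells, monocytes and platelets were detected in every group, as the label of whole blood implies.

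In the first sampling Oasl2, whose protein carries ubiquitin-like domains, climbed from day 2 to day 30. Its CPM (counts scaled to library size, with TMM factors) were 6.14 ± 1.43 (SD, n = 10) on day 2, 8.57 ± 2.58 in the cohort of day 5, 10.6 ± 3.47 by day 9 and 17.2 ± 7.94 by day 12. Cohorts of days 16, 19, 23, 26 and 30 had 16.9 ± 10.6, 20.9 ± 7.02, 46.7 ± 27.01, 32.7 ± 16.5 and 49.5 ± 34.6 CPM. The highest day 2 library (8.17 CPM) lay below the lowest of day 30 (28.1 CPM), so these groups did not overlap. Oas2, an enzyme that makes 2-5A, went from 1.90 ± 0.36 to 9.08 ± 4.94 CPM over the same days, again with no overlap (highest 2.47 against lowest 4.45). Oas3, an enzyme built of repeated synthetase units, followed another course. It stood at 19.2 ± 7.82 CPM in the day 2 cohort and 14.9 ± 3.55 in that of day 19. Later cohorts were higher, at 32.7 ± 16.2 on day 23 and 37.97 ± 15.1 on day 30. Oas1e, a tandem copy of Oas1a, was at 0.939 ± 0.397, 0.591 ± 0.363 and 2.55 ± 1.30 CPM in the same cohorts of days 2, 19 and 30. For both of these genes the day 2 and day 30 ranges overlapped. The share of all genes without overlap is not given here or below. A lack of overlap can thus not be read as particular to the family.

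**Figure D1:**
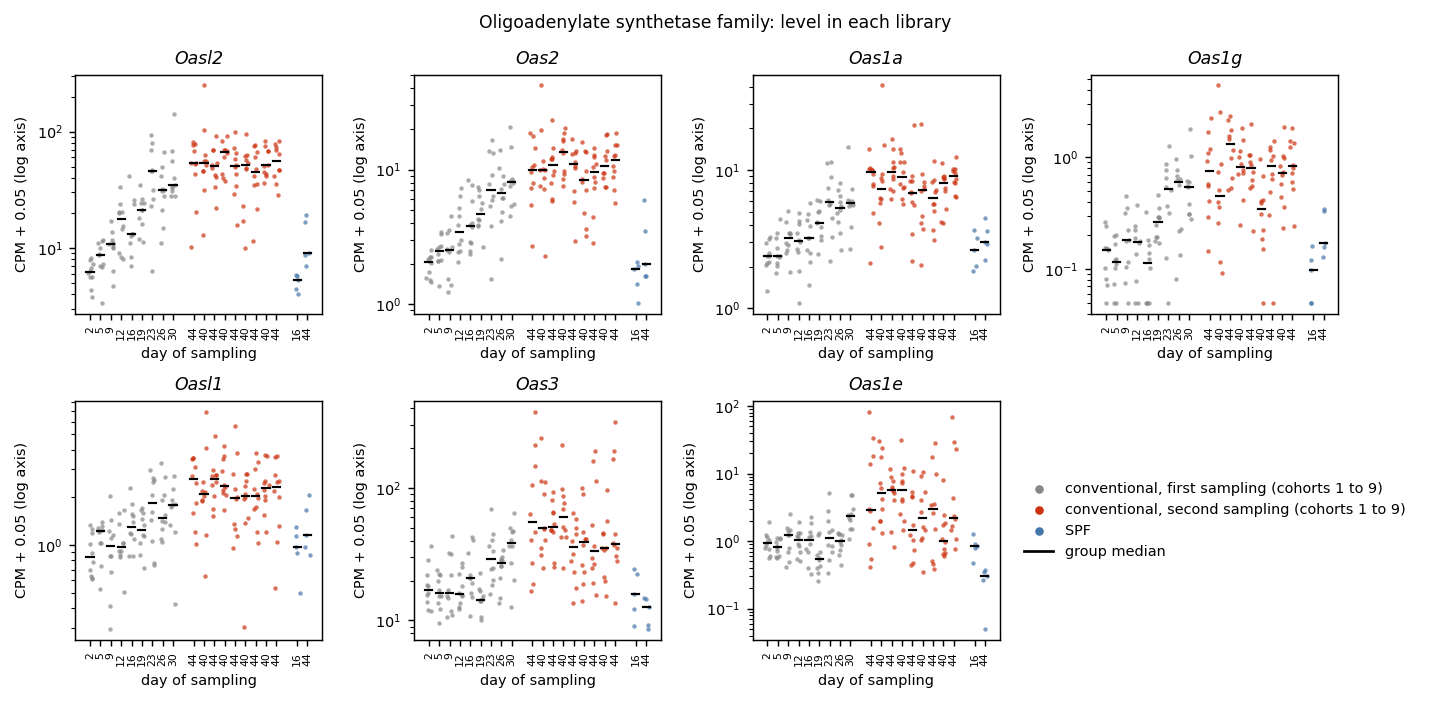
CPM of each member in every library by day (log axis, CPM + 0.05), with 1 panel per gene; grey points are the first sampling, red the second, blue SPF mice, and black bars medians. Oasl2 and Oas2 climb through the first sampling (Oasl2 medians 6.13 on day 2 and 34.5 on day 30), while Oas1e and Oas3 spread widely in the second sampling (Oas1e up to 82.2).

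All 7 members differed among the 9 first-sampling cohorts by edgeR's quasi-likelihood test, where 61.9% of genes did. All 7 rose with day in a linear fit, against 26.5% of genes that rose (56.1% passed in either direction). The slope per 10 days, as log2 ± SE, was largest for Oas1g (1.10 ± 0.15, edgeR adjusted p = 2.42e-09), Oasl2 (1.07 ± 0.08, 1.24e-18) and Oas2 (0.82 ± 0.07, 1.35e-16). It was 0.53 ± 0.06 for Oas1a, 0.37 ± 0.07 for Oasl1, 0.37 ± 0.09 for Oas1e (edgeR adjusted p = 0.000485) and 0.32 ± 0.07 for Oas3 (3.22e-05). The values of Oas1g rest on few counts (first-sampling median 0.144 CPM, 0 to 1.74), which are estimates shared with Oas1a. The members' median slope was 0.53 and that of all genes tested -0.01. Within cohorts 1 to 4 (days 2 to 12) only Oasl2 (1.34, edgeR adjusted p = 7.48e-06) and Oas2 (0.89, 0.000734) rose, Oas3 had a slope of -0.04 (0.907), and Oas1g did not pass the filter on low counts, where 2020 of 15348 genes rose and 2182 fell. Within cohorts 6 to 9 (days 19 to 30) only Oas1e (1.60, edgeR adjusted p = 0.0196) and Oas3 (1.01, 0.0258) rose, where 214 of 15111 genes passed, 70 of them lower. Among the 58 libraries with a score of 0, Oasl2, Oas2, Oas1a, Oas1g and Oasl1 rose, with a slope of 0.90 for Oasl2 and 0.70 for Oas2, while Oas1e (-0.12, edgeR adjusted p = 0.507) and Oas3 (0.11, 0.446) did not pass. Of 18190 genes tested there, 3003 rose and 3431 fell. Markers of other blood cells moved too: all 10 neutrophil markers rose (median slope 1.197), 9 of 10 B cell markers fell, and 5 of 8 erythroid markers rose (median slope 0.14). The summed neutrophil markers had a median of 411.8 CPM on day 2 (275.7 to 1455) and 3548 on day 30 (2661 to 9332). In bulk blood, more cells of a type and more RNA per cell cannot be told apart.

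Between the first and second samplings of the same cohorts, every member rose. Oas1e ranged from 0.209 to 5.11 CPM (median 0.948) in the 90 first-sampling libraries and from 0.294 to 82.2 (median 2.86) in the 90 of the second. Oas3 went from a median of 20.05 CPM (9.46 to 69.7) to 44.6 (13.5 to 375). Oasl2 went from a median of 15.1 CPM (3.33 to 140.6) to 52.6 (9.92 to 250.2), and Oas2 from 3.83 (1.19 to 20.7) to 10.2 (2.24 to 42.1). Ranges overlapped for all 4 genes, and the second sampling was higher in its median and in its highest library.

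In edgeR, 7 of 7 members were higher in the second sampling within cohorts, where 32.9% of genes were (64.2% passed in either direction), and their median log2 change was 1.47 against -0.01 for all genes. The change was 2.50 ± 0.23 (SE) for Oas1e (edgeR adjusted p = 1.24e-19), 1.99 ± 0.22 for Oas1g, 1.56 ± 0.14 for Oasl2 (7.96e-20) and 1.47 ± 0.14 for Oas3 (1.06e-18). It was 1.32 ± 0.12 for Oas2, 1.12 ± 0.11 for Oas1a and 0.88 ± 0.10 for Oasl1, a relative without synthetase activity that is known to restrain translation of Irf7. The samplings lie further apart in cohorts 1 to 4 than in cohorts 6 to 9, and the changes within each set are given here without a test of their difference. Oasl2 was higher by 2.54 ± 0.17 in cohorts 1 to 4 and 0.53 ± 0.17 in cohorts 6 to 9, and Oas2 by 2.14 ± 0.15 and 0.49 ± 0.15. Oas1e was higher by 3.13 ± 0.31 and 1.99 ± 0.34 and Oas3 by 1.94 ± 0.19 and 1.10 ± 0.20. In cohorts 6 to 9 Oas1g no longer passed (0.61, edgeR adjusted p = 0.0519). In cohorts 1 to 4 edgeR called 5054 of 15921 genes higher and 5766 lower, and in cohorts 6 to 9 2289 of 15757 higher and 1285 lower. All 10 neutrophil markers were higher in the second sampling (median log2 1.73), all 8 erythroid markers were higher (1.17) and all 10 B cell markers lower.

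On day 44 the conventional mice could be set against SPF mice of the same day. Oas1e was low in the SPF mice, at 0.251, 0.216, 0, 0.322 and 0.298 CPM (12, 13, 0, 13 and 19 counts), and ranged from 0.338 to 82.2 (median 3.17) in the 50 conventional libraries. These groups did not overlap in CPM, but the gap was narrow (0.322 against 0.338 CPM, at 13 counts each). In deposited TPM they overlapped: replicates 2 and 7 of cohort 7 had 0.069 and 0.085, below SPF replicate 5 at 0.087. The count of 0 in SPF replicate 3 allows a level of up to 0.0832 CPM (3 counts, for counting error only). Oas3 was at 8.57, 9.25, 14.6, 12.5 and 14.5 CPM in SPF mice and at 13.5 to 375 (median 44.6) in conventional mice, so 2 SPF libraries lay inside the conventional range. Oasl2 was at 8.68, 16.5, 8.96, 6.90 and 19.3 CPM in SPF mice and at 10.1 to 100.1 (median 51.7) in conventional mice. Oas2 was at 1.57, 3.45, 1.94, 1.56 and 5.90 CPM against 2.67 to 23.4 (median 10.5). For Oasl2 and Oas2, SPF replicates 2 and 5 were the highest of their group and lay inside the conventional range.

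Relative to SPF, 6 of 7 members were higher in conventional mice on day 44, where 11.5% of genes were (22.4% passed in either direction). The log2 difference was 5.20 ± 1.44 (SE) for Oas1e (edgeR adjusted p = 0.00782), 2.52 ± 0.70 for Oas3 (0.00758), 2.30 ± 0.57 for Oas1g, 2.07 ± 0.36 for Oasl2 (6.59e-05), 1.82 ± 0.35 for Oas2 (0.000189) and 1.34 ± 0.30 for Oas1a. Oasl1 differed by 0.78 ± 0.32 and did not pass (edgeR adjusted p = 0.0647). Without SPF replicate 5 it passed, at 0.048. All 10 neutrophil markers were higher in conventional mice (median log2 3.15), as were 7 of 8 erythroid markers (1.99). The summed neutrophil markers ranged from 385.7 to 730.9 CPM in SPF mice and from 355.4 to 15201 in conventional mice, and the erythroid markers from 24391 to 40438 and from 22303 to 208590. Restricting the conventional mice to the 8 with a score of 0 or 0.5 left 0 of 7 members and 0 of 14908 genes called by edgeR, with 4 members and 2658 genes at an unadjusted p under 0.05. In those 8 mice Oas1e ranged from 0.366 to 1.16 CPM, above the highest SPF library of day 44 (0.322) but overlapping the 5 SPF libraries of day 16, at 0.796, 0.740, 0.867, 0.424 and 1.23 CPM. In TPM, replicate 2 of cohort 7 (score 0) had 0.069, below SPF replicate 5 of day 44 at 0.087. Sets of cohorts were also taken alone, chosen after the data were seen. Cohorts 1 and 3 had median globin shares of 3.655% and 3.71% on day 44, near the 3.4% of SPF mice, and all 7 members were higher there by edgeR (2248 of 15178 genes higher, 1698 lower), with 5.42 ± 1.31 for Oas1e (adjusted p = 0.00663), 2.67 for Oas3, 2.10 for Oasl2 and 0.89 for Oasl1 (0.0238). Cohorts 7 and 9, with globin shares of 7.52% and 7.465%, had 6 members higher (1604 of 15226 genes higher, 1546 lower), with 5.38 ± 1.46 for Oas1e (edgeR adjusted p = 0.0124), 2.65 for Oas3, 2.06 for Oasl2 and 0.67 for Oasl1, which did not pass (0.134).

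On day 16 only cohort 5 could be set against SPF mice, and fewer members were called than on day 44. Oasl2 was at 4.40, 5.71, 5.79, 4.00 and 5.19 CPM in SPF mice and at 6.98 to 41.7 (median 13.1) in cohort 5, with no overlap. It was the 1 member of 7 called (log2 1.75 ± 0.40, edgeR adjusted p = 0.0322), where 0.747% of genes were called (0.557% higher). Oas2, at 0.975, 1.79, 2.01, 1.88 and 1.35 CPM in SPF mice and 2.32 to 8.33 in cohort 5, did not overlap either and did not pass (1.46 ± 0.38, edgeR adjusted p = 0.0597). The call of Oasl2 rests on each SPF library: leaving out any one of the 5 left 0 members called, and without the high-globin replicate 3 its difference was 1.79 (edgeR adjusted p = 0.061). Oas3 and Oas1e overlapped between housings on that day. None of the 10 neutrophil markers or 8 erythroid markers was called by edgeR, although all 10 of the former had positive log2 differences (median 0.92), such as Cxcr2 (1.15, edgeR adjusted p = 0.13) and S100a9 (1.18, 0.278). Of the other markers, 3 of 5 for eosinophils and the monocyte marker Ccr2 (1.07 ± 0.25, edgeR adjusted p = 0.0312) were higher, and the B cell marker Cd79b was lower (-0.87 ± 0.22, 0.0498). With the neutrophil and B cell marker means as covariates the difference of Oasl2 was 0.95 ± 0.23 (edgeR adjusted p = 0.0458).

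From day 16 to day 44, 5 of 7 members rose in cohort 5, where 9.06% of genes rose and 5.72% fell (14.8% in all). Oas1g rose by 3.38 ± 0.62 (log2 ± SE), Oasl2 by 1.58 ± 0.30 (edgeR adjusted p = 0.000463), Oas1e by 1.503 ± 0.51 (0.0464), Oas2 by 1.22 ± 0.29 (0.00348) and Oas1a by 1.16 ± 0.28. Oas1g rests on few counts, and with Oas1a, Oas1e and Oas1g summed the rise was 1.33 ± 0.26. Oas3 (0.59 ± 0.27, edgeR adjusted p = 0.141) and Oasl1 (0.74 ± 0.27, 0.0645) did not pass. The call of Oas1e was lost with no filter on low counts (1.48, edgeR adjusted p = 0.0815), with globin and mitochondrial rRNA shares as covariates (1.65, 0.101), with a replicate block (1.03, 0.166), with the erythroid covariate (0.82, 0.0792) and without TMM factors (1.09, 0.109). All 10 neutrophil markers rose in that cohort and 0 of 8 erythroid markers did. RNA make-up moved too: in cohort 5 the median share of globin was 3.72% on day 16 and 7.032% on day 44, and that of mitochondrial rRNA 10.1% and 15.9%, whereas in SPF mice they were 3.784% and 3.4%, and 7.296% and 7.47%. Over the same days 0 members were called in SPF mice, by edgeR or by DESeq2, where edgeR called 0% of 15798 genes, with 4 members and 943 genes at an unadjusted p under 0.05 in edgeR. The log2 differences in SPF mice were 1.28 ± 0.43 for Oasl2 (edgeR adjusted p = 0.734), 1.94 ± 0.92 for Oas1g (0.818), 0.88 ± 0.42 for Oas2 (0.818) and -1.86 ± 0.79 for Oas1e (0.786), and -0.49, 0.52 and 0.29 for Oas3, Oasl1 and Oas1a. The difference between these changes was not called for any member by edgeR (0 of 15798 genes, with 2 members and 1767 genes unadjusted), and was largest for Oas1e at 3.36 ± 0.94 (edgeR adjusted p = 0.262). That value joins 1.503 in cohort 5 with -1.86 in SPF mice, so the lower SPF levels of day 44 made up more than the change in cohort 5. DESeq2 called 1 of the 6 members to which it gave an adjusted p, Oas1e (3.42, adjusted p = 0.0498), among 53 genes.

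Dermatitis was scored from 0 to 4, and scores above 0 first occurred on day 12. In the second sampling, the median of Oas1e followed the score, at 0.492 CPM for score 0 (n = 7), 1.01 for 0.5 (n = 5), 1.28 for 1 (n = 11), 2.43 for 2 (n = 27), 6.10 for 3 (n = 39) and 7.59 in the only mouse with 4. Oas3 had medians of 17.4, 27.02, 29.6, 42.5, 63.7 and 65.1 CPM over the same scores. Oasl2 went from 16.9 CPM at score 0 to 63.4 at 0.5, and then stood at 47.3, 45.1, 68.2 and 69.1. Oas2 took the same form, at 3.54, 8.78, 8.71, 8.63, 12.8 and 12.3 CPM. The medians of Oas1e and Oas3 were thus higher at each score than at the one before, those of Oasl2 and Oas2 were not, and libraries of neighbouring scores overlapped for each gene. Score 4 is 1 mouse, and the order of the medians was not tested. Within cohorts of the second sampling, the log2 ratio of Oas1e over Oasl2 rose by 0.45 ± 0.16 (SE) per score point. Its adjusted permutation p was 0.0245 over 8 ratio tests. The ratio of Oas3 over Oas2 changed by 0.22 ± 0.12 and did not pass (adjusted permutation p = 0.1). In cohorts 1 to 4 and 6 to 9 the former was 0.71 ± 0.23 and 0.18 ± 0.29, and the latter 0.34 ± 0.17 and 0.13 ± 0.21. Per score point in the first sampling (days 12 to 30) they were -0.30 ± 0.18 and -0.29 ± 0.13 (adjusted permutation p = 0.187 and 0.0822). Between samplings they changed by -0.098 and -0.003 (0.669 and 0.984). Their slopes per 10 days of the first sampling were -0.75 and -0.38 (4e-05 each), but 0.30 ± 0.33 and 0.39 ± 0.22 within cohorts 6 to 9.

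**Figure D2:**
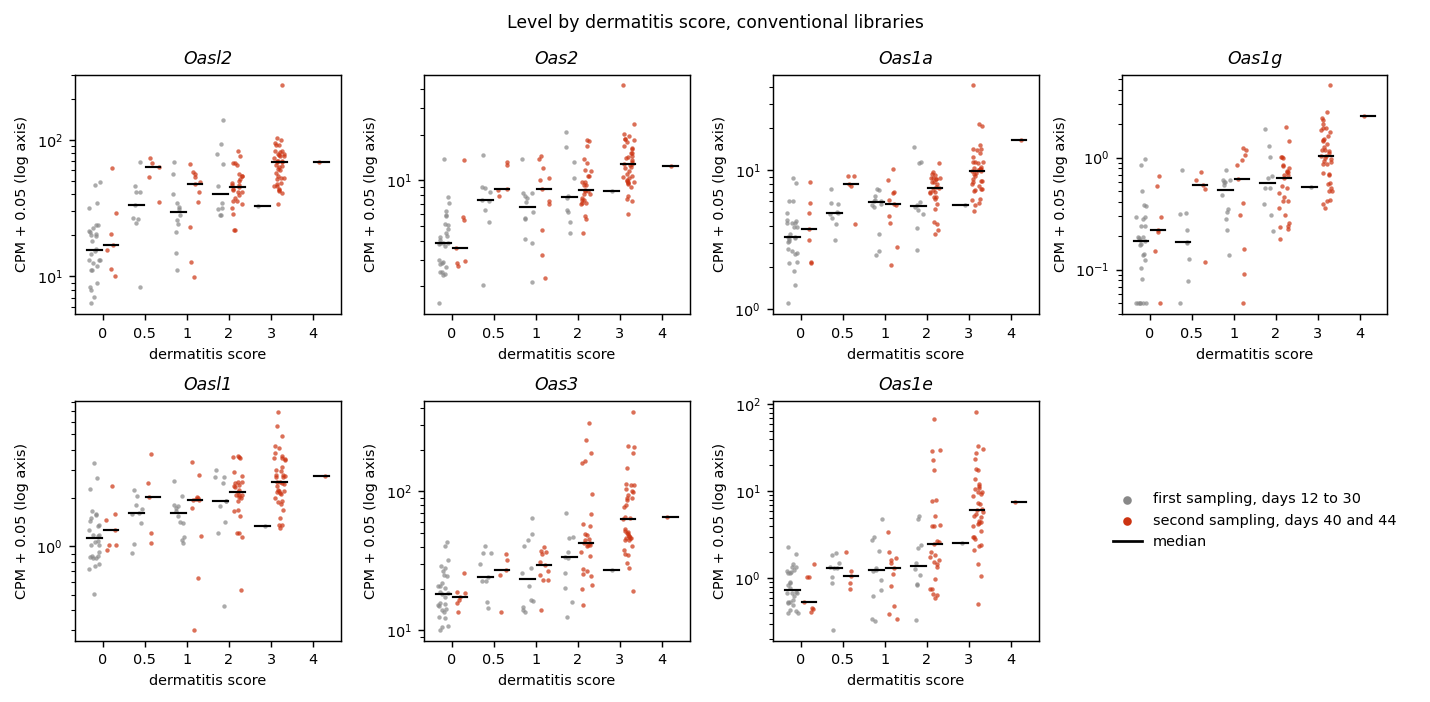
CPM of each member by dermatitis score in conventional libraries (log axis, CPM + 0.05); grey points are first-sampling libraries of days 12 to 30, red points second-sampling libraries, and bars medians. In the second sampling Oas1e medians run from 0.492 at score 0 to 6.10 at score 3, and those of Oasl2 from 16.9 to 68.2 with most of the step between 0 and 0.5.

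Within cohorts of the second sampling, 7 of 7 members rose with the score, where 21.3% of genes rose and 21.8% fell (43.1% in all). The slope per score point was 1.22 ± 0.20 (log2 ± SE) for Oas1e (edgeR adjusted p = 3.15e-06), 0.65 ± 0.12 for Oas3 (1.31e-05), 0.57 ± 0.12 for Oas1g, 0.38 ± 0.07 for Oasl2 (2.01e-05), 0.37 ± 0.07 for Oas1a, 0.35 ± 0.07 for Oas2 and 0.30 ± 0.07 for Oasl1. The members' median slope was 0.38 and that of all genes -0.02. In cohorts 1 to 4 all 7 rose (1.61 for Oas1e, 0.85 for Oas3), where 2950 of 14268 genes rose and 2695 fell. In cohorts 6 to 9 edgeR called 0 members and 0 of 14667 genes, with 5 members and 2447 genes at an unadjusted p under 0.05, and the slopes were 0.88 for Oas1e (edgeR adjusted p = 0.205), 0.50 for Oas3 (0.23) and 0.35 for Oasl2 (0.131). All 10 neutrophil markers (median slope 0.52) and all 8 erythroid markers (0.57) rose with the score. In the first sampling edgeR and DESeq2 each called 0 of 7 members (1 at an unadjusted p under 0.05 in edgeR), where edgeR called 12.3% of genes (6.93% higher and 5.34% lower). There the slope was 0.38 for Oasl2 (edgeR adjusted p = 0.106) and 0.04 for Oas3 (0.88), all 10 neutrophil markers rose (0.82) and none of the 8 erythroid markers did (0.15). Within cohorts 6 to 9 of that sampling 0 of 7 members were called by edgeR and 0 had an unadjusted p under 0.05 (0.32 for Oasl2, adjusted p = 0.234), where 928 of 15111 genes rose and 594 fell. Cohort 4 was not fitted alone. The difference between the slopes of the 2 samplings was called for no member in edgeR, which called 0 of 16563 genes (2 members and 2130 genes unadjusted). DESeq2 called 298 genes and 1 of the 2 members to which it gave an adjusted p, Oas3 (0.59, adjusted p = 0.048). With the score split at 2 or more, the difference passed in edgeR for Oas1e (2.75, adjusted p = 0.0045) and Oas3 (1.502, 0.00794). The count of all genes called with that split is not given here, so these calls cannot be read as particular to the family. With the score as a number the differences were 0.96 (edgeR adjusted p = 0.226) and 0.59 (0.201). Adding the erythroid marker mean as a covariate to that fit left 0.39 (0.248) and 0.30 (0.211).

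Some pairs of members moved together, and the same libraries carried their extremes. Oas1e and Oas3 were both highest in replicate 4 of cohort 1 on day 44 (score 3), at 82.2 CPM (1027 counts) and 375 CPM (4688 counts), and next in replicate 7 of cohort 9 on day 44 (score 2), at 67.6 and 311 CPM. The copy Oas1c was also highest in CPM in these same libraries, at 7.28 and 6.40, but not in counts. Their CPM thus depend on the TMM factors, and the size of that part was not tested. In TPM, which has no TMM factor, replicate 4 of cohort 1 was still highest for Oas1e (4.588) and Oas3 (9.325). Oasl2 and Oas2 were both highest in replicate 8 of cohort 2 on day 40 (score 3), at 250.2 and 42.1 CPM. With each library taken as its deviation from the mean of its group, Spearman's rho over the 190 libraries was 0.8801 between Oas2 and Oasl2 and 0.8591 between Oas1e and Oas3. It was 0.1931 between Oas2 and Oas1e, 0.2387 between Oasl2 and Oas1e, and 0.3849 between Oas2 and Oas3. Other pairs lay between these, such as Oas1a and Oas3 at 0.534, Oasl1 and Oas3 at 0.495 and Oasl1 and Oas2 at 0.6332. These libraries share scaling factors and cohorts, and the values are a description.

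**Figure D3:**
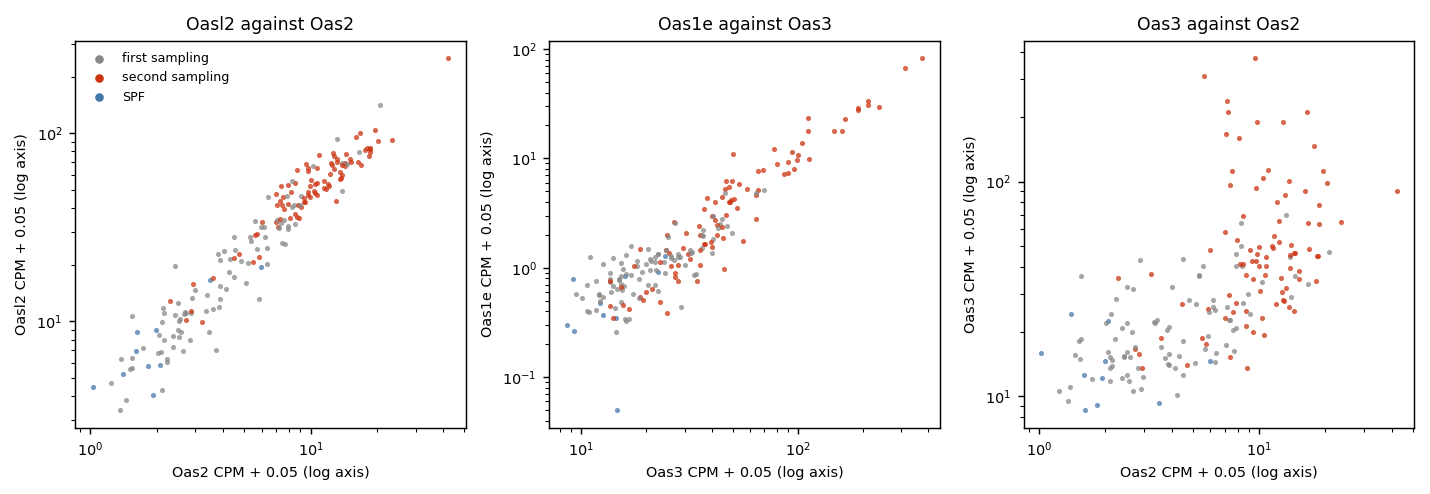
CPM of pairs of members in the 190 libraries (log axes, CPM + 0.05), as Oasl2 against Oas2, Oas1e against Oas3, and Oas3 against Oas2. The first 2 pairs lie along a line (rho of levels 0.9667 and 0.8919), and the third is more scattered (0.7122).

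The pairs differed in whether they went more closely with the neutrophil or with the erythroid markers. Only these marker means were correlated with the members, and those of other cells, such as monocytes, were not. Over deviations from group means in 190 libraries, Oasl2 correlated with the mean of 10 neutrophil markers at r = 0.867 (rho = 0.823, without the 2 libraries farthest in the marker mean r = 0.8505), Oas2 at r = 0.766 (rho = 0.697) and Oas1a at r = 0.672 (rho = 0.603). With the mean of 8 erythroid markers, Oas1e correlated at r = 0.911 (rho = 0.865, without 2 libraries r = 0.898) and Oas3 at r = 0.881 (rho = 0.839, without 2 libraries r = 0.866). These 5 relations each had a permutation p of 1e-05, the smallest that 100000 permutations can give, with an adjusted p of 1.75e-05 over 14 relations. Weaker relations with the other marker mean also passed. Oasl2 with the erythroid mean had r = 0.171 (adjusted permutation p = 0.0424), Oas1e with the neutrophil mean r = 0.304 (0.000809) and Oas3 r = 0.357 (1.75e-05), whereas Oas2 with the erythroid mean had r = 0.094 (0.247). Oasl1 lay between, with a rho of 0.394 with the neutrophil and 0.28 with the erythroid mean. The relation of Oasl2 with neutrophil markers held in the first sampling (r = 0.833), in the second (0.909), in cohorts 1 to 4 (0.887) and in cohorts 6 to 9 (0.859). That of Oas1e with erythroid markers was 0.743, 0.946, 0.942 and 0.912 in the same order, and that of Oas3 was 0.734, 0.922, 0.911 and 0.874. The marker means had a rho of 0.28 with each other. Of 30 other interferon-stimulated genes, 11 likewise had a higher rho with the erythroid than with the neutrophil mean, such as Rsad2 (0.9654), Isg20 (0.947) and Isg15 (0.8924). Ddx60 (0.7911) and Trim30a (0.7897) were highest with the neutrophil mean.

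**Figure D4:**
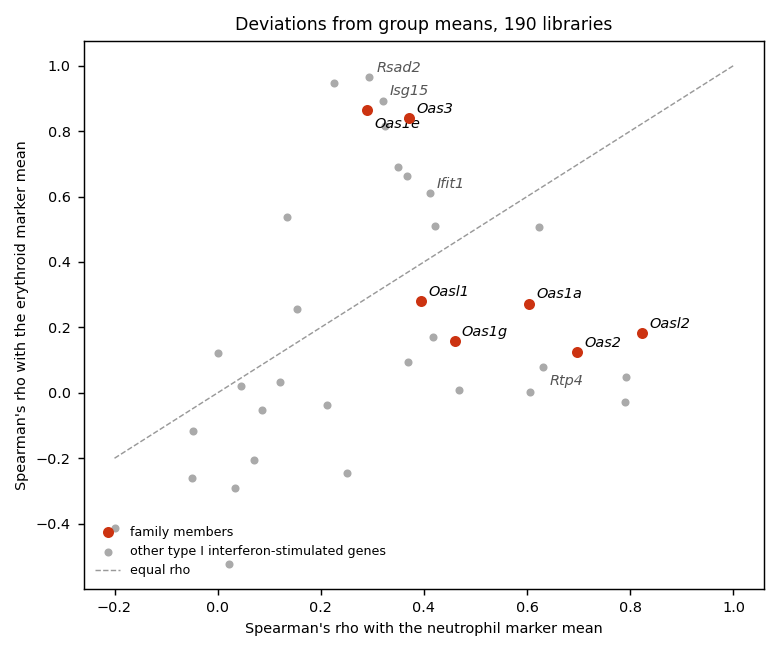
Spearman's rho of each gene with the neutrophil marker mean (x axis) and the erythroid marker mean (y axis), over deviations from group means in 190 libraries, for the 7 members and 30 other interferon-stimulated genes; the dashed line marks equal values. Oas1e and Oas3 (0.865 and 0.839 with the erythroid mean) lie above the line near Isg15, and Oasl2 (0.823 with the neutrophil mean) lies at its right.

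The fits were repeated with the marker means as covariates. With the erythroid mean as a covariate, chosen after these values were seen, the second-against-first change was 0.40 ± 0.10 for Oas1e and 0.38 ± 0.07 for Oas3, against 2.50 and 1.47 without it. For Oasl2 it was 1.33 ± 0.15 and for Oas2 1.17 ± 0.13, against 1.56 and 1.32. With the neutrophil and B cell means as covariates it was 0.27 ± 0.07 for Oasl2 and 0.25 ± 0.08 for Oas2, and 1.32 ± 0.25 for Oas1e and 0.76 ± 0.15 for Oas3. For the score slope in the second sampling, the erythroid covariate left 0.31 for Oas1e and 0.15 for Oas3 (edgeR adjusted p = 0.0204), with 0.45 for Oasl2 and 0.44 for Oas2. The neutrophil and B cell covariates left only Oas1e (1.00, edgeR adjusted p = 0.00167) and Oas3 (0.49, 0.00694) called. On day 44 against SPF, the erythroid covariate left a difference of 1.32 ± 0.41 for Oas1e and 0.60 ± 0.20 for Oas3. With neutrophil and erythroid means together, only Oas2 (0.29 ± 0.09) and Oasl2 (0.28 ± 0.07) were still called between samplings, and 0 members for the score or for housing on day 44. A covariate taken from the same libraries removes any change that goes with it. Counts of all genes called in these fits are not given here, so the members' counts cannot be read as particular to the family.

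**Figure D5:**
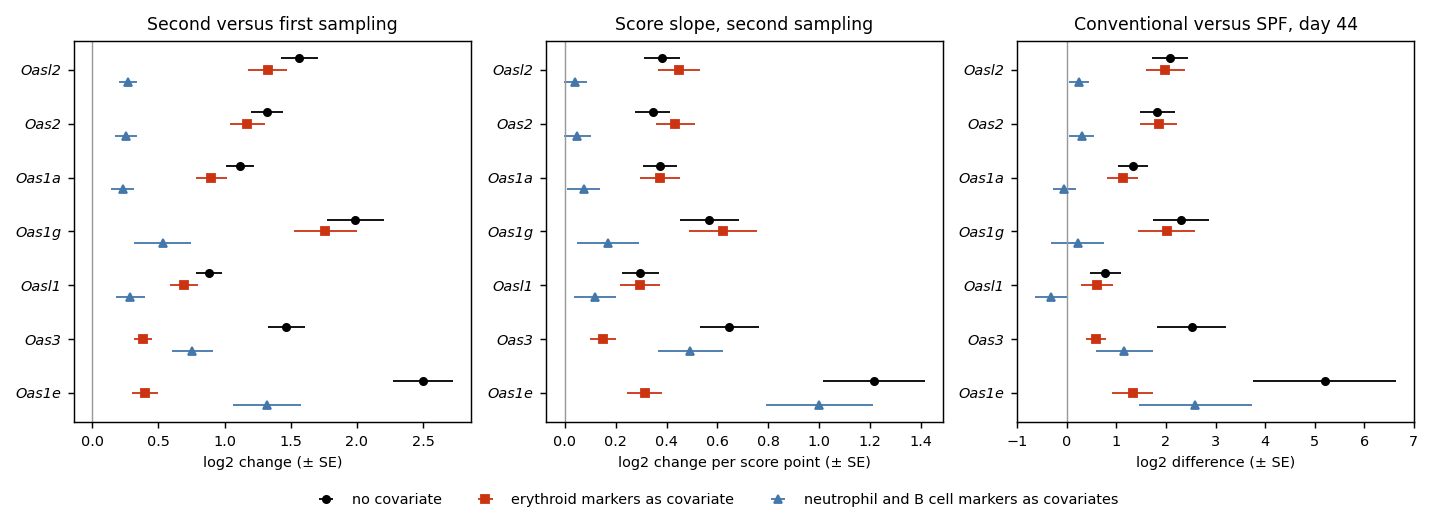
Log2 change ± SE of each member in 3 comparisons (second against first sampling, slope per score point in the second sampling, conventional against SPF on day 44), fitted with no covariate, with the erythroid marker mean, and with the neutrophil and B cell marker means. For the change between samplings, Oas1e moves from 2.50 to 0.40 with the erythroid mean and Oasl2 from 1.56 to 0.27 with the neutrophil and B cell means.

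Genes most like 3 members over all 190 libraries, by Spearman's rho of levels, were these. For Oasl2 they were Slfn4 (0.9651), Cd300lf (0.9635), Nlrp12 (0.9628), Gcnt2 (0.9613) and Xdh (0.9594). For Oas2 they were Samhd1 (0.9395), Slfn4 (0.9392), Prr5l (0.9361), Rtp4 (0.9355) and Lcp1 (0.9278). For Oas3 they were Isg15 (0.9256), Ypel3 (0.9138), Grina (0.9096), Tdrd7 (0.906) and Pck2 (0.9052). Over deviations from group means, Oasl2 was led by Slfn4 (0.892), Cd300lf (0.8816), Xdh (0.8732), Sfxn5 (0.8728) and the G-CSF receptor Csf3r (0.8682), Oas2 by Rtp4 (0.8158), Samhd1 (0.811), Slfn4 (0.8079), Lcp1 (0.7848) and Slfn1 (0.7845), and Oas3 by Isg15 (0.9274), Pck2 (0.9011), Ypel3 (0.8969), Grina (0.8949) and Dcaf11 (0.8938). Oas1e, added after its values were seen, was led by Isg15 (0.9001), and other genes like it were Pck2 (0.888), the red cell antigen Kel (0.887) and Arih2 (0.8864).

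The spread between mice of a group was wider in the second sampling for each member, as a description with no test. The median SD within groups, on the log2(CPM + 0.5) scale, was 0.437 in the first and 1.27 in the second sampling for Oas1e, and 0.514 and 0.904 for Oas3. It was 0.674 and 0.746 for Oasl2, 0.561 and 0.681 for Oas2, 0.444 and 0.5255 for Oas1a, 0.344 and 0.543 for Oasl1 and 0.228 and 0.514 for Oas1g.

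Downstream and upstream of the family, the 2-5A pathway and interferon genes were counted by list, with the second-against-first change as the main value. Directions here are relative to TMM scaling: without TMM factors the median of all genes shifted by -0.357, and changes smaller than that depend on the scaling. Abce1, which is known for its role in ribosome recycling, fell by 0.28 ± 0.04 between samplings (edgeR adjusted p = 1.07e-12) and by 0.16 per score point. Pde12, which degrades 2-5A, differed by 0.01 ± 0.03 and did not pass (edgeR adjusted p = 0.798).

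Of 9 interferon ligand genes only Ifng passed the filter on low counts, with a log2 difference of -0.21 between samplings (edgeR adjusted p = 0.119) and 0.02 per score point (0.9), neither of which passed. Of 9 receptors and kinases, 8 rose and 1 fell between samplings. The interferon lambda receptor Ifnlr1 rose by 1.72 ± 0.16, Ifnar2 by 0.60 ± 0.06, Il10rb by 0.59 ± 0.05, Ifngr2 by 0.49 ± 0.05, Ifngr1 by 0.42 ± 0.05, Jak2 by 0.38 ± 0.05, Jak1 by 0.37 ± 0.04 and Ifnar1 by 0.23 ± 0.03, and Tyk2 fell by 0.14 ± 0.04. With the score 7 of these 9 rose, and on day 44 against SPF 6 were higher and 1, Tyk2, lower. Of 9 transcription factors, 6 rose and 3 fell. Among them Irf7 rose by 0.77 ± 0.08, Irf9 by 0.46 ± 0.05, Irf1 by 0.32 ± 0.06, Stat2 by 0.25 ± 0.05 and Irf2 by 0.15 ± 0.03, whereas Irf8 fell by 0.34 ± 0.05, Irf5 by 0.30 ± 0.05 and Irf3 by 0.19 ± 0.04. On day 44 against SPF 3 factors were higher and 3 lower, the latter again Irf8, Irf5 and Irf3.

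Of 12 nucleic acid sensors tested, 8 rose and 1 fell between samplings, led by the RNA sensor Ifih1 (0.69 ± 0.07), its adaptor Mavs (0.60 ± 0.09) and the kinase Eif2ak2 (0.30 ± 0.05). Of 30 other type I interferon-stimulated genes 24 rose and none fell, led by Isg15 (1.89 ± 0.19), Rtp4 (1.17 ± 0.11) and the antiviral enzyme Rsad2 (1.16 ± 0.12). With the score 18 rose and 1 fell, and on day 44 against SPF 13 were higher and 0 lower. Of 12 GTPases and chemokines induced by interferon gamma 7 rose and 1 fell between samplings, led by Cxcl9 (1.02 ± 0.31), Gbp2 (0.91 ± 0.12) and Gbp7 (0.79 ± 0.08), and 3 rose and 1 fell with the score. The other copies Oas1b and Oas1c rose by 0.52 ± 0.07 and 0.24 ± 0.07. The background of these counts is 32.9% of genes higher and 31.3% lower between samplings, 21.3% and 21.8% for the score, and 11.5% and 10.9% on day 44.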

How the data were processed

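Whole blood (about 0.1 mL from the tail vein) gave RNA for stranded total RNA libraries depleted of ribosomal and globin RNA, per the labels' protocols. The submitters' processing notes name DRAGEN and GRCm39, and no version is given in the sources used here. The authors deposited expected counts for 55414 genes, of which 2.765% of values were not whole (tolerance 0.011), and TPM. The latter was used only to order genes by level per length and to look at the highest libraries without TMM factors. Library totals were 21444129 to 71967299 (median 36448181), and no library was a copy of another.

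Expected counts were rounded to whole numbers and tested with edgeR 4.0.16 (quasi-likelihood, robust, TMM scaling) in R 4.3.3, on the groups of each comparison, after a filter on low counts (minimum count 10, minimum total 15). The threshold was an adjusted p of 0.05 (Benjamini-Hochberg, over all genes tested). Cohort was a term in the comparisons between samplings and by score. CPM were scaled by TMM over the 20 groups, and 0.5 was added before log2. Libraries were grouped by the labels alone. The fits were tested on simulated data. DESeq2 1.42.0, other scalings and filters, covariates, subsets of cohorts, left-out SPF libraries and a replicate block were the alternatives. The members, gene lists and marker lists were chosen with earlier results of these data known. Named were all members, the pathway partners, ligands, receptors and factors that passed the filter, the 3 largest changes of each other list, and the 5 genes most like Oas2, Oas3 and Oasl2. Promoters of Oas2 and Oas1e were not used here, and some genes of the lists are not reported here.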

Additional observations from a re-analysis of the deposited data

Results flagged for a closer look

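Single libraries far from the others were looked for in the 140 sets made by the 7 members and 20 groups, and 7 were found. Chance flags about 1 in 20 such sets. Oasl2 was at 6.31 CPM in replicate 2 of cohort 7 on day 23 (score 0), where the next lowest library was at 22.7, and at 3.33 CPM in replicate 7 of cohort 2 on day 5 (next 6.82). Oas1e was at 7.9 CPM in replicate 1 of cohort 8 on day 40 (score 2), above the next library at 2.37, and at 0 in SPF replicate 3 of day 44, below the next at 0.216. Oasl1 was at 0.252 CPM in replicate 8 of cohort 6 on day 40 (next 1.32) and at 0.375 CPM in replicate 3 of cohort 9 on day 30 (next 1.16). Oas1a was at 1.28 CPM in replicate 4 of cohort 1 on day 2 (next 2.03).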

How the results depend on the processing

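The recomputed counts of called members were within 1.5 times the reported count except for 33. Of the values of single members, 891 kept their direction and their side of the threshold, 110 kept the direction and lost the call, 12 gained it and 56 changed sign. The cause of each change was not tested unless the setting itself gives it, such as fewer libraries. The covariates with erythroid markers, the scaling without TMM and the sets of cohorts on day 44 were chosen after seeing the data.

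For housing on day 16 (1 member called, 0.747% of genes), 2 members were called by DESeq2 (466 genes) and with globin and mitochondrial rRNA covariates (514 genes). None (0) were called with no filter (55 genes), without any one SPF replicate (0 to 0), with mice of score 0 only or without TMM (18 genes). For day 44, 0 members were called with neutrophil and B cell covariates, with neutrophil and erythroid covariates and with scores of 0 or 0.5, and 6 to 7 without one SPF replicate. For the change in cohort 5, 0 were called with either covariate pair and 3 without TMM. For the change in SPF mice and the difference of changes, 0 to 0 were called without one replicate, and DESeq2 called 1 in the difference. Of 7 members that differed among first-sampling days, 2 did with either covariate pair, 2 in cohorts 1 to 4, 3 in cohorts 6 to 9 and 4 at score 0. Of 7 that rose with day, 2 did with either covariate pair and 2 in either set of cohorts. Between samplings, 2 were called with neutrophil and erythroid covariates. For the score in the second sampling, 2 were called with neutrophil and B cell covariates and 0 with neutrophil and erythroid covariates or in cohorts 6 to 9. For the difference of score slopes, 1 was called by DESeq2 and 2 with scores of 2 or more against lower. Where no count of all genes is given for a setting, its count of members cannot be read as particular to the family.

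Whether replicate numbers pair the libraries was not settled. Of 95 pairs with the same number, correlations of deviations ran from -0.395 to 0.684, 42 were over 0.1 and 11 were best with their own number. A weak correlation cannot exclude that a number marks the same mouse on both days. With the number as a replicate block, 0 members were called for housing on day 16, 6 on day 44, 4 for the change in cohort 5, 0 in SPF mice, 0 for the difference and 7 between samplings. Counts of all genes called with that block are not given here, so these counts of members cannot be read as particular to the family.

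Values that changed sign were these. On day 16, with neutrophil and B cell covariates, Oas1a was -0.15, Oas1e -0.66 and Oas3 -0.14, and with neutrophil and erythroid covariates Oas1a was -0.25 and Oas1e -0.035. On day 44, Oas1a was -0.049 and Oasl1 -0.32 with the former pair, and -0.098 and -0.30 with the latter. In cohort 5, the former gave Oas1a -0.0049, Oas1e -0.26, Oas3 -0.33 and Oasl1 -0.029, and the latter Oas1a -0.12, Oas3 -0.065 and Oasl1 -0.20. In SPF mice, Oas1e was 0.046 with the 3 Oas1 copies summed, Oas3 was 0.21 with the erythroid covariate, and the latter pair gave Oas1a -0.046 and Oas3 0.081. For the difference of changes, the former pair gave Oas1a -0.21, Oas2 -0.51, Oasl1 -0.46 and Oasl2 -0.87, the latter Oas1a -0.078, Oas2 -0.31, Oas3 -0.15, Oasl1 -0.37 and Oasl2 -0.76, and no TMM Oas2 -0.43, Oasl1 -0.43 and Oasl2 -0.42. For the trend, Oas3 was -0.044 in cohorts 1 to 4 and Oas1e -0.12 at score 0. For the score in the first sampling, the former pair gave Oas1a -0.054, Oas2 -0.17, Oas3 -0.25, Oasl1 -0.087 and Oasl2 -0.26, and the latter Oas1a -0.096, Oas2 -0.20, Oas3 -0.28, Oasl1 -0.14 and Oasl2 -0.29. There a split at score 2 gave Oas3 -0.010, the erythroid covariate Oas1e -0.033 and Oas3 -0.13, and no TMM Oas3 -0.11 and Oasl1 -0.055. For the difference of score slopes, RNA covariates gave Oas1a -0.013, Oas1g -0.011 and Oasl2 0.0081, and Oasl2 was 0.13 with the former pair, 0.036 with the split, 0.018 with the erythroid covariate and 0.18 with the latter pair.

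Without TMM the median of all genes shifted by -0.677 on day 44, -0.214 in cohort 5, 0.428 in SPF mice, -0.65 in the difference of changes, -0.161 per 10 days, -0.357 between samplings, -0.179 per score point in the second sampling and -0.116 in the first. Genes called higher and lower then numbered 418 and 7442 on day 44 (1837 and 1751 with TMM), 1641 and 11458 between samplings (5595 and 5337), 1372 and 9808 for the trend (4344 and 4868) and 837 and 8816 for the score (3297 and 3373). Of the members, Oas1a on day 44 (0.58, edgeR adjusted p = 0.15) and Oas2 and Oasl1 for the score in the second sampling were no longer called. Depth limits Oas1g and, in SPF mice, Oas1e, which rest on few counts.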

Other observations

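The letters AGATAA, searched on both strands after the erythroid marker values were seen, occur in the 300-base promoter windows of Oas3 and Oasl2 and in 11.2% of all promoters, which is a description with no test. Markers of skin and muscle, which tail bleeding can bring into a sample, were lower in the second sampling for 5 of 7 tested genes, led by Col1a1 (log2 -2.95 ± 0.26) and Col1a2 (-2.90 ± 0.25), and their part in the members' values was not tested.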
